A study of Mus musculus with 12 samples.

Results

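The effect of lowering Trim28 and Setdb1 together was followed in mouse fibroblasts on day 7 of reprogramming. The 3 libraries of OSKM-induced cells with hairpins against both genes were set against the 3 libraries of induced cells with a scrambled hairpin, which makes 6 of the 12 libraries of the series. They were chosen by their sample titles and the matching column names of the deposited count table, and not by any measured value. All cells were C57BL/6 mouse embryonic fibroblasts that carried FUW-OSKM, a lentiviral construct that encodes the factors Oct4 (from the gene Pou5f1), Sox2, Klf4 and c-Myc, and FUW-M2rtTA, the transactivator through which doxycycline turns it on. Doxycycline was given to both groups for 7 days in ES medium over a layer of irradiated feeder MEFs, so induction, time and feeders are shared. The column names give 1 hairpin per target, so a response common to several hairpins of a gene cannot be read from these libraries. For reference, values are also given for induced cells with the Trim28 hairpin alone and for cells that carried a scrambled hairpin and were not induced, with 3 libraries each. Whether replicates stem from separate cultures is not stated, and p-values therefore reflect the spread among these libraries alone, which may be technical. The labels are also silent on whether the feeder fibroblasts were removed before RNA was taken, and on what share of the cells had begun to reprogram. In such bulk samples, fewer cells of a type and less RNA per cell cannot be told apart.

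As background, Trim28 (also KAP1) is a corepressor that has no DNA-binding domain of its own and is brought to the genome by zinc finger proteins with a KRAB domain. It recruits Setdb1, which places trimethyl marks on lysine 9 of histone H3, and HP1 proteins that bind this mark, and together they keep endogenous retroviruses and many genes beside them silent. Reprogramming to pluripotency begins with a transition of fibroblasts towards an epithelial state, in which mesenchymal genes go down and keratins, claudins and desmosome genes come up, and the pluripotency network of the cells' own genes follows later.

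The 12 libraries held 11906701 to 19191649 counted reads each, so that by library totals 3 reads equal 0.156 to 0.252 counts per 1e+06 reads. CPM elsewhere in the text are counts per 1e+06 reads after TMM scaling in edgeR. Of 24207 genes in the table, 14520 had enough reads to be tested. Mesenchymal genes such as Vim, Fn1 and Col3a1 were among the most abundant transcripts of both groups, as the label of fibroblast origin would have it, and Nanog, a core pluripotency factor named here outside the rule for named genes, stood at 2.64 ± 0.823 CPM with both hairpins and 7.37 ± 1.97 in the control (mean ± SD, n = 3). On the first principal component, which held 78.9% of the variance and separated induced from uninduced cells, replicate 1 of the double knockdown stood apart from its group at -16.2 against -29.9 and -29.6, on the side of the uninduced cells. Replicate 1 of the control lay on the same side of its own group, at -35.2 against -44.7 and -49.2. Results were therefore also computed without each of these libraries and without both.

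The knockdown itself was incomplete for both targets. Trim28 (ENSMUSG00000005566, chromosome 7, 13024152 to 13031035) was read at 107, 95.6 and 107 CPM in the 3 double-knockdown libraries and 362, 286 and 337 in the controls, with no overlap. The log2 change was -1.67 ± 0.10 (SE, edgeR quasi-likelihood test, Benjamini-Hochberg adjusted p = 4.73e-09). Setdb1 (ENSMUSG00000015697, chromosome 3, 95323525 to 95357202) was at 65.2, 70.1 and 54.1 CPM against 76.4, 84.5 and 82.8, also without overlap and with a much smaller log2 change of -0.36 ± 0.086 (adjusted p = 0.00369). The loss of Setdb1 transcript was thus modest against the control, while the cells with the Trim28 hairpin alone had 122 ± 1.36 CPM of it.

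Across all tested genes, 5324 (36.7%) changed between the double knockdown and the induced control at an adjusted p under 0.05, and 6658 had an unadjusted p under 0.05. Of these 5324, 2630 rose (18.1% of the tested genes) and 2694 fell (18.6%), and the median log2 change of all tested genes was 0.00093. Most changes were small: 468 genes rose (3.22%) and 565 fell (3.89%) at least 2-fold, and 137 rose (0.944%) and 104 fell (0.716%) at least 4-fold. When libraries were scaled by their totals alone, 2110 genes rose and 3270 fell, so the balance between rises and falls depended on the scaling. The largest gains in abundance were in matrix and cytoskeleton genes: Fn1 (fibronectin) went from 8447 ± 730.0 to 11543 ± 513 CPM and Thbs1 (thrombospondin 1) from 2603 ± 309 to 5679.8 ± 463. The largest losses were those of the imprinted RNA H19, from 3609.6 ± 624 to 1338 ± 190.0 CPM, and of the fibrillar collagen gene Col3a1, from 3772 ± 702 to 1837 ± 275.

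**Figure D1:**
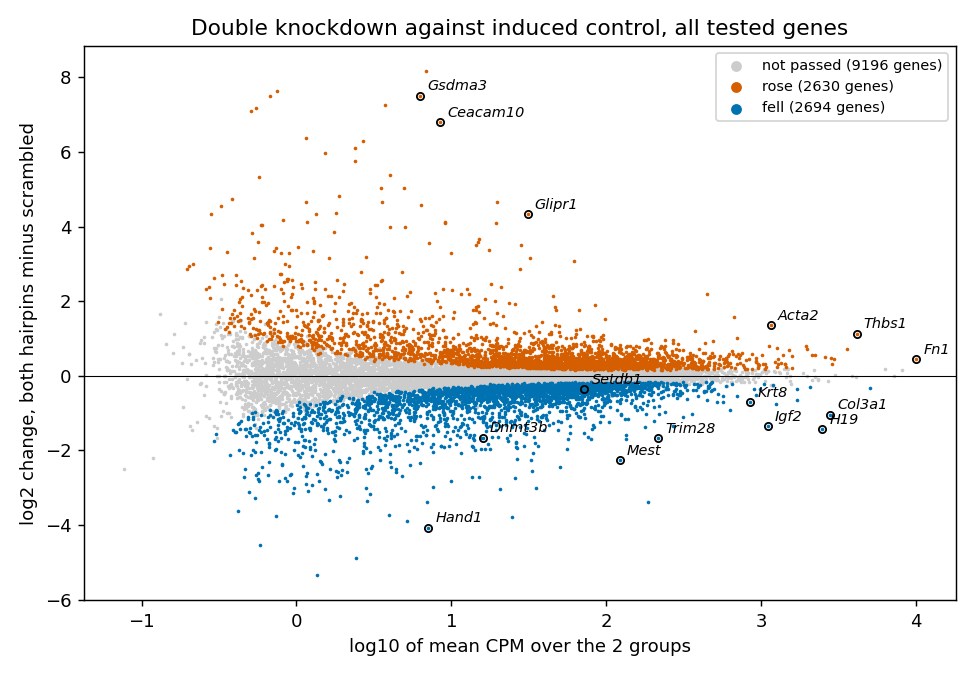
Each point is 1 of the 14520 tested genes, with the log10 of its mean CPM over the 6 libraries on the x axis and the fitted log2 change, both hairpins minus scrambled, on the y axis. Colours mark the 2630 genes that rose and the 2694 that fell, and the rises of over 4 log2 units lie mostly at low mean CPM, while Acta2 and Thbs1 are risen genes of high abundance.

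The largest rises were genes that the induced control hardly read at all. Of the 137 genes that rose at least 4-fold, 100 were under 1 CPM on average in the control and 102 under 1 CPM in uninduced cells, and 23 had 3 or fewer reads over the 3 control libraries. A choice by fold favours genes that are low in the control. Of 13686 tested protein-coding genes, 968 were under 1 CPM there. With both hairpins, 111 of the 137 reached a mean of at least 1 CPM and 32 reached 10 CPM, and the group median went from 0.25 to 2.32 CPM. The 3 libraries of each group did not overlap in 136 of the 137, against 45.1% of all tested genes, a share that the choice of large rises itself favours. They were not of 1 kind: the 12 largest by the naming rule encode steroid and retinoid enzymes (Akr1c21, Rdh16), a pore-forming gasdermin (Gsdma3), cell adhesion and lectin proteins (Ceacam10, Cdhr2, Clec12a), a lipase-related protein (Pnliprp2), a peptide receptor (Qrfpr), the membrane protein Prrt3 and 3 axonemal dynein heavy chains (Dnah6, Dnah7a and Dnah8). A promoter sequence is shown for the first 3 of them, because DNA methylation, which acts on CG dinucleotides, works beside the histone mark at many silenced genes. Each run is the 250 bases before the transcription start in RefSeq, build GRCm38.p6, plus strand, with every CG in capitals.
Akr1c21, chr13:4573825-4574074: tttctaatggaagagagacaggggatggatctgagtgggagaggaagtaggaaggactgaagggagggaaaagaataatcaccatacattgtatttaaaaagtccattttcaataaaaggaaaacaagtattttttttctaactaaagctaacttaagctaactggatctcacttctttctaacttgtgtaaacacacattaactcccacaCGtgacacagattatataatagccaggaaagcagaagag
Gsdma3, chr11:98626099-98626348: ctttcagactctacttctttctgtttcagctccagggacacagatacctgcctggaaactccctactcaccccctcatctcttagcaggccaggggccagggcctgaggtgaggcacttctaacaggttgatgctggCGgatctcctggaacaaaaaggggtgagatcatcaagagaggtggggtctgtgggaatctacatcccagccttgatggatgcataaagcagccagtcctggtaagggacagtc
Ceacam10, chr7:24776917-24777166: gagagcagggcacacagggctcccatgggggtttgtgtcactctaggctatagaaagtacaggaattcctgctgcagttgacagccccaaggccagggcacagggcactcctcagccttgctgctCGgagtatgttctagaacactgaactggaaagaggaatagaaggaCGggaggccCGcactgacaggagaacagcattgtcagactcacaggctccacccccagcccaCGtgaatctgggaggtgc
The Akr1c21 and Gsdma3 stretches hold 1 CG each and that of Ceacam10 holds 4, where the median of 10521 such windows of tested genes was 16 (quartiles 9 and 23). Windows with 1 CG or fewer made up 3.33% of all, and windows with 4 or fewer 11.9%, while 98.7% held at least 1. Few CGs are not particular to rises: in windows of 300 bases, which run 50 bases past the start, the protein-coding genes under 1 CPM in the control had a median of 9 CGs and the genes that fell at least 4-fold a median of 6, against 20 over all tested genes. These medians are given as values only, because the RefSeq table held a promoter for 649 of 968 and 62 of 104 genes of these sets, and for 84 of the 137 large rises (61.3%), too few for a check over the sets.

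Akr1c21, a hydroxysteroid dehydrogenase gene (ENSMUSG00000021207, chromosome 13, 4574075 to 4586541), had no read in the 3 controls and 78 reads with both hairpins, at 1.71, 1.03 and 1.75 CPM. It was at least 24.4-fold higher, counted against a floor of 3 reads over the control group. Gsdma3 (ENSMUSG00000064224, chromosome 11, 98626360 to 98638226) rose from 0.0585, 0.081 and 0.0501 CPM to 15.2, 10.1 and 12.2, which is a ratio of 205 with a 95% counting interval of 69.7 to 995 on 3 control reads. Ceacam10, a carcinoembryonic antigen-related adhesion gene (ENSMUSG00000054169, chromosome 7, 24777204 to 24784649), went from 0.292, 0 and 0.1 CPM to 16.7 ± 2.23 (mean ± SD), a log2 change of 6.81 ± 0.29 (adjusted p = 7.91e-10). In each of these genes the 3 double-knockdown libraries lay far above every control library and close to each other. That the groups do not overlap was required by the naming rule. Cdhr2, a cadherin of intestinal microvilli (ENSMUSG00000034918, chromosome 13, 54701461 to 54736662), was even at 5.35, 5.2 and 5.38 CPM with both hairpins on 3 control reads, a ratio of 87.5 (interval 29.6 to 427). Clec12a, an inhibitory lectin receptor of myeloid cells (ENSMUSG00000053063, chromosome 6, 129342691 to 129365303), had 1 control read and 2.18, 2.22 and 2.45 CPM with both hairpins (ratio 113, interval 19.9 to 4494), while the macrophage markers tested beside it did not rise. Prrt3 had 2 control reads and stood at 3 ± 0.62 CPM, a ratio of 73.8 (interval 20.1 to 615). These intervals and floors cover counting error only, since reads lacking molecular identifiers may repeat 1 molecule.

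Pnliprp2, a pancreatic lipase-related gene (ENSMUSG00000025091, chromosome 19, 58759723 to 58777533), rose from 0.0585, 0.162 and 0.3 CPM to 6.83, 8.35 and 8.47 (log2 5.38 ± 0.36, adjusted p = 1.69e-08). Among the dynein genes, which encode motor subunits of cilia and sperm flagella, Dnah6 rose from 0.0667 to 4.74 ± 1.37 CPM, Dnah7a from 0.0902 to 2.22 ± 0.209 and Dnah8 from 0.279 to 9.57 ± 1.25. Dnah8 overlaps the antisense gene RP23-362B7.1, which rose by log2 6.12, and as no strand setting is given for the counts, reads of the pair cannot be told apart. Qrfpr, the receptor of a neuropeptide that acts on feeding, went from 0.134 ± 0.0968 to 3.65 ± 0.539 CPM, and Rdh16, a retinol dehydrogenase gene, from 0.28 ± 0.11 to 6.82 ± 1.61. Predicted and clone genes, which the naming rule leaves out, reached similar sizes. The antisense gene Gm11100 went from 0, 0 and 0.1 CPM to 12.4, 15.4 and 13.6, a ratio of 342 on 2 control reads (interval 94.3 to 2828). The long intergenic RNA 2410088K16Rik went from 0.0362 ± 0.0316 to 7.38 ± 1.05 CPM. Both of these, and Glipr1, a secreted CAP-domain protein gene that rose by log2 4.34 to 59.3 ± 7.63 CPM, were picked out after their values were seen.

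Several of these genes had neighbours that moved the same way. Cdhr2 lies between Rnf44, a ubiquitin ligase gene that rose by log2 0.34 ± 0.082, and Gprin1, a neurite outgrowth gene that rose by 2.22 ± 0.31. The annotated spans of Cdhr2 and Gprin1 are 9 bases apart. With no strand setting given, it cannot be told whether reads of 1 gene of this pair were counted for the other. Prrt3 lies 757 bases from Creld1, which rose by 0.63 ± 0.089. Others stood alone: Akr1e1, 4216 bases from Akr1c21, was at -0.01 ± 0.093 and did not pass, and Gsdma, the gasdermin gene next to Gsdma3, fell by log2 1.03 ± 0.25. The fall of Gsdma was lost when replicate 1 of both groups was left out (adjusted p = 0.0579). Of the genes that rose at least 4-fold and had a tested gene within 200 kb on either side, 67 of 129 (51.9%) had a nearest neighbour that rose, against 29.4% of all tested genes. Without overlapping neighbours the shares were 60 of 122 (49.2%) and 27.5%. A neighbour that itself rose at least 4-fold stood beside 11.6% of them, against 1.48% of all tested genes (9.02% and 1.38% without overlapping neighbours).

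**Figure D2:**
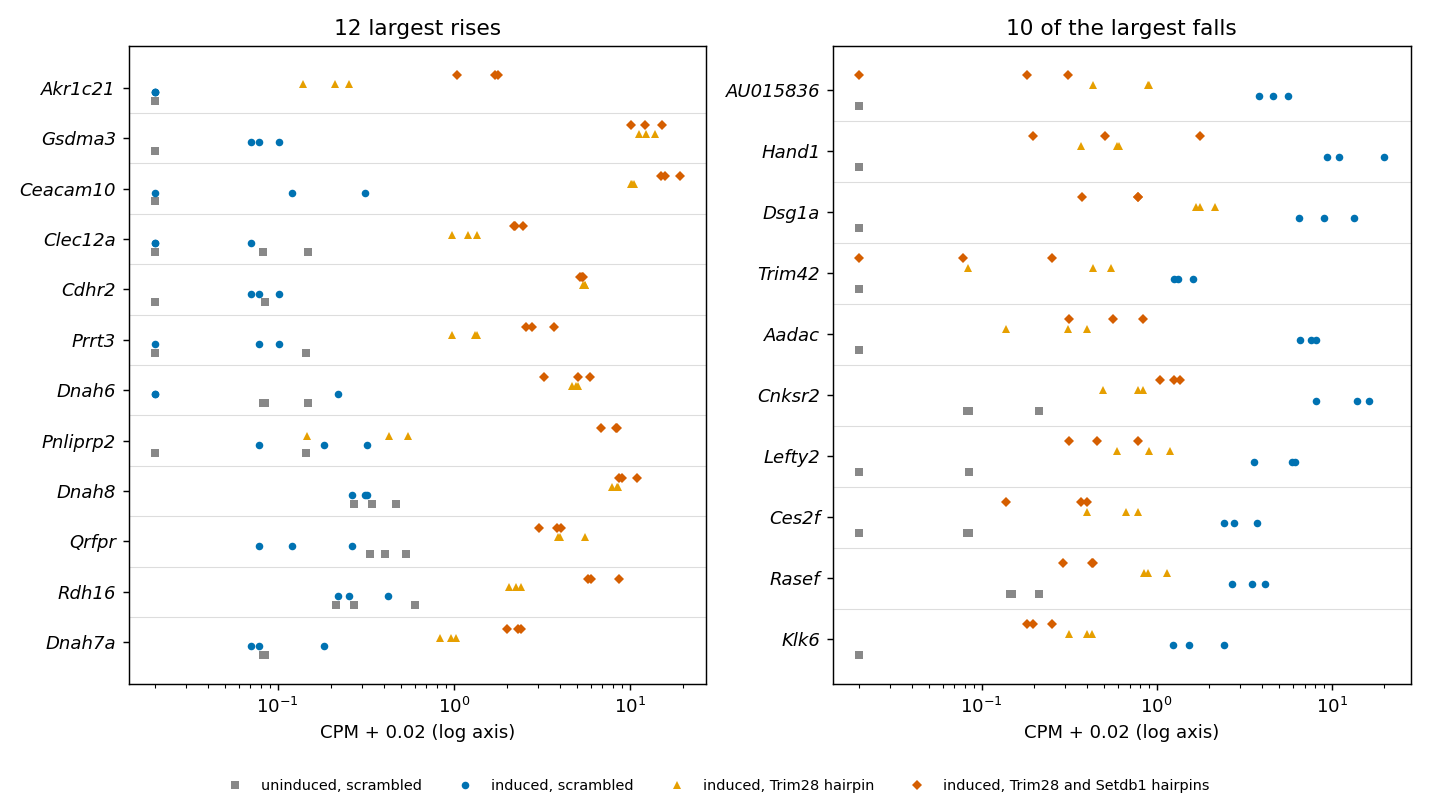
Levels of the 12 largest rises (left) and 10 of the largest falls (right) under the naming rule in all 12 libraries, as CPM plus 0.02 on a log axis, with 1 point per library and 1 symbol per group. The naming rule required that the diamonds of the double knockdown and the circles of the induced control not overlap. The triangles of the Trim28 hairpin alone lie near the diamonds for Gsdma3, Cdhr2 and Dnah6 and far below them for Pnliprp2.

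Falls of at least 4-fold were seen mainly in genes hardly read in uninduced cells. Of these 104 genes, 92 were under 1 CPM in uninduced cells, and the group median went from 3.08 CPM in the control to 0.50 with both hairpins. The share of all tested genes under 1 CPM in uninduced cells is not given for comparison. Hand1, a trophoblast and heart transcription factor (ENSMUSG00000037335, chromosome 11, 57828705 to 57832818), fell from 9.41, 10.9 and 19.9 CPM to 0.177, 0.488 and 1.75, a log2 change of -4.07 ± 0.43 (adjusted p = 6.00e-06). Its replicates were uneven in both groups, with the highest double-knockdown library below the lowest control, as the naming rule required. Aadac, an esterase gene (ENSMUSG00000027761, chromosome 3, 60031763 to 60040160), fell from 6.55, 8.1 and 7.56 CPM to 0.294, 0.542 and 0.818 (log2 -3.72 ± 0.27, adjusted p = 1.26e-07). The X-linked gene AU015836 fell from 4.67 ± 0.904 to 0.152 ± 0.146 CPM, and Cnksr2, a neuronal scaffold gene also on the X chromosome, from 12.7 ± 4.16 to 1.2 ± 0.16. Other large falls were in Dsg1a, a desmosomal cadherin of epidermis (log2 -3.90 ± 0.32), the carboxylesterase gene Ces2f (-3.32 ± 0.35), the Nodal antagonist Lefty2 (-3.37 ± 0.33) and the skin protease Klk6 (-3.14 ± 0.39). The testis gene Trim42 and the Rab-like GTPase gene Rasef fell by 3.77 and 3.23 on the log2 scale. Of the falls, 44 of 88 genes with a tested neighbour within 200 kb (50%) had a nearest neighbour that fell, against 30.4% of all tested genes. A neighbour that itself fell at least 4-fold stood beside 11.4% of them, against 1.07% of all tested genes (9.52% and 1.01% without overlapping neighbours). Shares of this size were thus seen for large falls as for large rises.

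The 4 reprogramming factors stood lower with both hairpins: all 4 fell, with log2 changes of -0.41 ± 0.11 for Pou5f1, -0.54 ± 0.17 for Sox2, -0.54 ± 0.10 for Klf4 and -0.42 ± 0.11 for Myc. Vector and cellular transcripts of these genes cannot be told apart in the counts. Pou5f1 was at 292, 418 and 391 CPM against 444, 474 and 544 in the control, where the lowest value of the double knockdown was that of replicate 1. Sox2 was at 90.2, 129.9 and 114 CPM against 177, 121 and 185, which overlap. The fall of Sox2 (adjusted p = 0.0234) was lost with DESeq2 (adjusted p = 0.0758). It was also lost without replicate 1 or 3 of the double knockdown (0.116 and 0.0526), without replicate 1 or 3 of the control (0.0570 and 0.101), and without replicate 1 of both groups (0.205), over a range of 6.07e-10 to 0.205 in 16 alternatives. How far the lower level of the factors bears on the other changes was not tested.

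Genes of the pluripotency network, which mark embryonic stem cells, were lower as a group. Of 33 tested of 40 listed, 22 fell, 1 rose and 10 did not pass, with a median log2 change of -0.63, against 18.6% falls, 18.1% rises and a median near 0 over all tested genes. Tfcp2l1, a transcription factor of the naive state, went from 37.5, 42.9 and 45.3 CPM to 7.36, 13.7 and 11.9 (log2 -1.93 ± 0.16, adjusted p = 1.83e-07). Tdh, the threonine dehydrogenase on which mouse embryonic stem cells depend, went from 32.7, 35.5 and 39.4 CPM to 13.8, 17.5 and 15.7 (log2 -1.20 ± 0.11). Sall1, a zinc finger factor, fell by log2 2.46 ± 0.24 from a low level of 5.13 ± 1.36 CPM. In all 3 genes the double knockdown lay between the induced control and the uninduced cells, and 20 of the 22 falling genes kept a mean above that of uninduced cells. Gdf3, a TGF-beta family ligand, was the 1 gene of the list that rose, from 0.925 ± 0.204 to 2.09 ± 0.633 CPM (log2 1.16 ± 0.30), a call lost without replicate 1 of both groups (adjusted p = 0.0953).

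Epithelial genes were lower nearly throughout the list. Of 38 tested, 34 fell (89.5%), none rose and 4 did not pass, with a median log2 change of -1.07. All tested genes had 18.6% falls and 18.1% rises. Each of the 34 still stood above its mean in uninduced cells. Krt18, a keratin of simple epithelium, went from 43.5, 48 and 64.4 CPM to 14.8, 18 and 17.2 (log2 -1.64 ± 0.13, adjusted p = 8.40e-08), where uninduced cells had 0.768 ± 0.205. The desmosomal cadherin genes Dsc2 and Dsg2 fell by 1.96 and 1.90 on the log2 scale, from 89.3 ± 18.3 to 22.8 ± 5.4 CPM and from 41.3 ± 3.09 to 11 ± 3.46 CPM. Rab25, a GTPase of epithelial membrane traffic, fell from 18.7 ± 3.16 to 4.46 ± 1.02 CPM. Summed over the tested list, epithelial transcripts made 3519 to 4342 CPM in the controls, 1831 to 2337 in the double knockdown and 82.5 to 86.4 in uninduced cells, so the groups did not overlap.

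Genes of stratified epithelium and of cell junctions followed. In the keratinocyte list 17 of 24 tested genes fell (70.8%), 1 rose (4.17%) and 6 did not pass, with a median of -1.16. Over all tested genes 18.6% fell and 18.1% rose, and the keratin and claudin counts below stand against the same shares. Krt16 and Krt6a, keratins of activated epidermis, fell from 282 ± 17.7 to 122 ± 10.2 CPM and from 117 ± 12.4 to 44 ± 3.78 CPM. Krt6b fell from 56.4, 48.5 and 65.2 CPM to 8.65, 7.37 and 13.3, a log2 change of -2.54 ± 0.18 (adjusted p = 1.05e-07), and the near-identical sequences of Krt6a and Krt6b make the split of reads between them uncertain. Pkp1, a desmosomal plaque protein gene, fell by log2 1.60 ± 0.12. Lamb3, a laminin chain of the epidermal basement membrane, went the other way, from 52.9, 45.2 and 50.8 CPM to 91.4, 96.4 and 94 (log2 0.92 ± 0.079, adjusted p = 2.55e-07). Of 18 tested keratin genes, 14 fell and none rose (median -1.05), among them Krt13 by 1.37 on the log2 scale. Of 11 tested claudins, seal proteins of tight junctions, 7 fell and 1 rose. Cldn4 fell from 179.6, 157 and 208 CPM to 69.1, 88 and 87.8, and Cldn6 and Cldn7 fell by log2 1.96 ± 0.15 and 1.24 ± 0.15. The rise of Cldn25 was small (log2 0.22 ± 0.066) and was lost in 8 of 16 alternatives (adjusted p 0.0149 to 0.101), among them without replicate 1 or 3 of the double knockdown (0.101 and 0.0519) and without replicate 2 or 3 of the control (0.0506 and 0.0738). In uninduced cells Cldn4, Cldn6 and Cldn7 stood at 0.149, 0 and 0.0208 CPM.

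**Figure D3:**
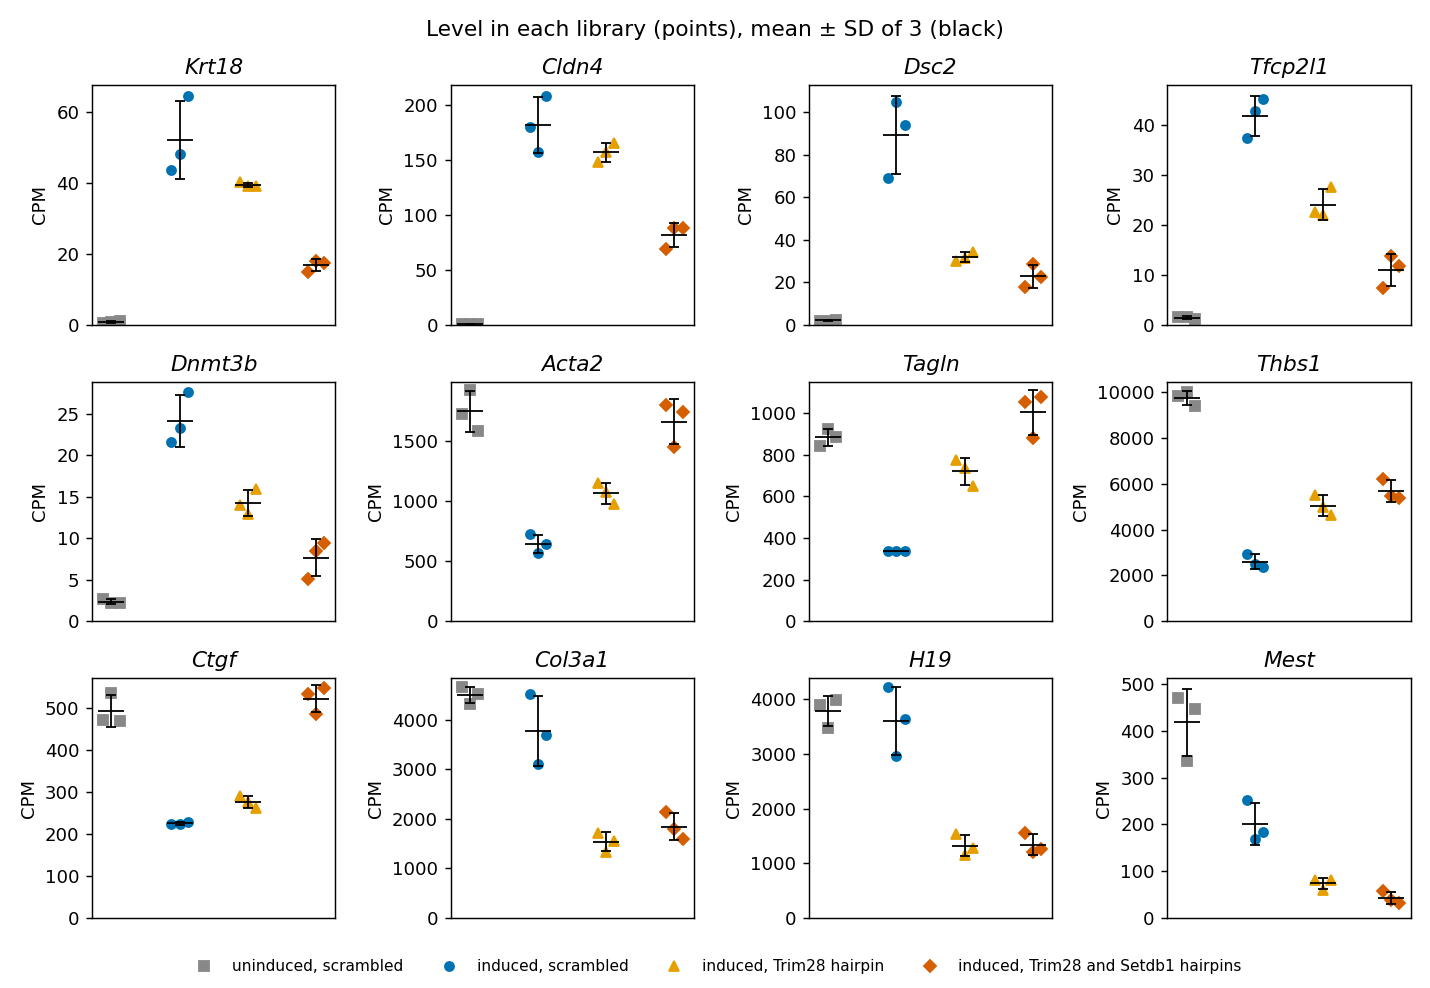
CPM in every library for 12 genes named in the text, on linear axes from 0, with the mean and SD of the 3 libraries of a group as black bars. Epithelial, pluripotency and Dnmt3b panels fall from the induced control to the double knockdown (Krt18 from 52 to 16.7 CPM), the contractile genes, Thbs1 and Ctgf rise (Tagln from 337 to 1005), and Col3a1, H19 and Mest fall away from their level in uninduced cells.

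Mesenchymal genes split into risers and fallers. Of 39 tested, 17 rose (43.6%), 9 fell (23.1%) and 13 did not pass, with a median log2 change of 0.19. All tested genes had 18.1% rises and 18.6% falls. All 17 risers were more abundant in uninduced cells than in the induced control, so their rise was towards the fibroblast level. Both directions are measured from the same control libraries, which favours such counts here and in the lists below. The matching share over all rises is not given. Acta2 (smooth muscle actin) went from 722, 571 and 646 CPM to 1798, 1448 and 1741 (log2 1.36 ± 0.10, adjusted p = 7.08e-08), and uninduced cells had 1747 ± 171. Tagln (transgelin) went from 336, 337 and 338 CPM to 1055, 881 and 1079 (log2 1.58 ± 0.084, adjusted p = 1.21e-09), and Cnn1 (calponin) from 35.8 ± 2.26 to 133 ± 16.9 CPM, above the 76.5 ± 4.27 of uninduced cells. The intermediate filament gene Vim and the integrin gene Itgb1 rose by log2 0.72 ± 0.076 and 0.80 ± 0.078, and the matrix protein gene Ccdc80 by 1.00 ± 0.064.

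Other mesenchymal genes fell, 2 of the 9 towards a lower level in uninduced cells. Col3a1 went from 4508, 3110.3 and 3698 CPM to 2129.8, 1797 and 1585 (log2 -1.04 ± 0.13, adjusted p = 1.17e-05), below both the induced control and the 4499 ± 167 CPM of uninduced cells. Col6a3, a chain of collagen VI, fell by log2 0.65 ± 0.10 and Pdgfra, a PDGF receptor gene, by 0.84 ± 0.12. Of 38 tested collagen chain genes 13 rose (34.2%) and 9 fell (23.7%, 4 of them towards a lower level in uninduced cells), with a median of -0.05. Col5a2, whose gene lies beside Col3a1 on chromosome 1, rose from 1496 ± 85.2 to 2459.7 ± 122 CPM. The basement membrane chain Col4a5 and the anchoring fibril collagen Col7a1 rose by 0.67 ± 0.076 and 0.80 ± 0.090. Of 17 tested matrix metalloproteinases, enzymes that cut matrix proteins, 7 rose (41.2%, against 18.1% of all tested genes) and none fell. Mmp10 went from 4.68, 8.51 and 6.06 CPM to 20.7, 22.4 and 24.3, and Mmp13 and Mmp24 rose by log2 1.02 ± 0.12 and 2.36 ± 0.38. Without replicate 2 of the double knockdown, 4 metalloproteinases rose, and without replicate 2 of the control 2 fell. Of 34 tested Hox genes, which keep the position along the body axis, 9 rose towards their fibroblast level (26.5%) and 1 fell (2.94%). All tested genes had 18.1% rises and 18.6% falls. Hoxb9 was at log2 0.78 ± 0.12, Hoxc6 at 0.48 ± 0.11 and Hoxb8 at 0.57 ± 0.13, and Hoxa9 at -0.43 ± 0.10.

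In the TGF-beta, BMP and Wnt list 13 of 46 tested genes rose (28.3%, against 18.1% of all tested genes) and 4 fell (8.70% against 18.6%), with a median of 0.09. Without replicate 1 of the double knockdown 7 rose (15.2%). Over all genes tested in that fit 1992 rose and 2003 fell, against 2630 and 2694 in the main fit. In the main fit 12 of the 13 risers were more abundant in uninduced cells than in the induced control, and 3 of the 4 fallers were less abundant there. Ctgf, a matricellular target of TGF-beta and Yap, was at 534, 486 and 548 CPM against 224, 224 and 229 in the control (log2 1.21 ± 0.071, adjusted p = 4.27e-09). Inhba, which encodes the activin A subunit, the inhibitory Smad gene Smad7 and the procollagen protease gene Bmp1 rose by 1.04 ± 0.14, 0.48 ± 0.074 and 0.52 ± 0.090. The ligand genes Bmp2 and Wnt7b fell by log2 1.29 ± 0.12 and 2.25 ± 0.22. In the p53 and senescence list 21 of 42 tested genes rose (50%), 6 fell (14.3%) and 15 did not pass, with a median of 0.20. Of the 21 risers, 20 were more abundant in uninduced cells than in the induced control, and 4 of the 6 fallers were less abundant there. The cytokine Il6, a secreted factor of senescent fibroblasts, went from 2.1, 1.7 and 1.85 CPM to 7.77, 10.4 and 7.07 (log2 2.15 ± 0.20, adjusted p = 6.91e-07). Gadd45g, a growth arrest gene, and the kinase gene Plk2 rose by 1.12 ± 0.11 and 0.51 ± 0.059. Mdm4, an inhibitor of p53, and Perp, a p53 target that is also a desmosome gene, fell by log2 0.80 ± 0.10 and 0.37 ± 0.090.

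Of 25 tested serpins, a family of protease inhibitors, 8 rose (32%) and 2 fell (8%), where all tested genes had 18.1% and 18.6%. Serpina3h and Serpina3i, close copies whose reads may be split wrongly, had log2 changes of 0.76 ± 0.14 and 0.87 ± 0.14, and Serpinb6c fell by 1.28 ± 0.15. Among AP-1 and early response genes 5 of 20 rose and 5 fell (25% each), near the shares of all tested genes, and 8 fell without replicate 2 of the control. Fosb and Fos, which respond within minutes to serum or stress, fell from 269, 166 and 177 CPM to 78.4, 61.9 and 49 and from 316 ± 55.5 to 160.2 ± 27 CPM. Atf3 and Egr1 fell by log2 0.47 ± 0.087 and 0.41 ± 0.10, while Fosl1 and Ier3 rose by 0.67 ± 0.11 and 0.48 ± 0.071.

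Cell cycle genes fell by small amounts. Of 50 tested, 31 fell (62%), 1 rose (2%) and 18 did not pass, with a median log2 change of -0.35 and no fall of 2-fold. The shares over all tested genes were 18.6% falls and 18.1% rises. Rrm1, a subunit of ribonucleotide reductase, went from 179 ± 13.5 to 114 ± 2.49 CPM (log2 -0.65 ± 0.073). Cdc6, which loads the replication helicase, and Mybl2, a proliferation factor, fell by 0.88 ± 0.11 and 0.88 ± 0.11, and Kif23, a cytokinesis kinesin, by 0.55 ± 0.079. Of the 31 falling genes 30 kept a mean above that of uninduced cells. Ccnd1 (cyclin D1) was the 1 riser, from 1267 ± 47.1 to 1591 ± 13.4 CPM.

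Glycolysis and glucose uptake genes were lower too, with 13 falls (59.1%) and 2 rises (9.09%) among 22 tested (median -0.30). The shares over all tested genes were 18.6% and 18.1%. Slc2a3 and Slc2a1, the glucose transporters Glut3 and Glut1, fell from 122 ± 20.4 to 37.8 ± 3.5 CPM and from 242 ± 40.8 to 119.6 ± 16.9 CPM. Pdk1, a kinase that keeps pyruvate out of the mitochondria, and the aldolase gene Aldoc fell by 1.21 ± 0.15 and 1.95 ± 0.24. Ldhb, the heart form of lactate dehydrogenase, rose from 30.3 ± 3.7 to 69.1 ± 6.6 CPM. Pfkm, the other riser, was at log2 0.25 ± 0.078 and lost its call in 6 of 16 alternatives (adjusted p 0.00672 to 0.0989), among them without replicate 1 or 3 of the double knockdown (0.0662 and 0.0501) and without replicate 2 or 3 of the control (0.0989 and 0.0522). Across all 221 tested solute carriers 47 rose and 49 fell, near the shares of all tested genes, and 31 rose without replicate 2 of the double knockdown. The urea channel gene Slc14a1 and the sugar transporter gene Slc5a9 fell by 2.08 ± 0.17 and 1.26 ± 0.12, and Slc1a4, which carries neutral amino acids, rose by 0.98 ± 0.069.

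The silencing machinery around the 2 targets held both rises and falls. Of the 20 listed partners, the targets included, 3 rose (15%), 6 fell (30%) and 11 did not pass, against 18.1% rises and 18.6% falls of all tested genes. Among all 14520 tested genes 9196 did not pass. The 6 falls include the 2 targets themselves. Trim24, a relative of Trim28 that also binds it, went from 60.5, 62 and 57.7 CPM to 129, 129.6 and 114 (log2 1.05 ± 0.071, adjusted p = 1.87e-08). Atf7ip2, a relative of the Setdb1 cofactor Atf7ip, went from 1.7, 1.86 and 2.05 CPM to 8.83, 8.83 and 9 (log2 2.24 ± 0.17, adjusted p = 5.81e-08), and in both genes the groups were tight and far apart. Zfp57, the KRAB zinc finger protein that guards imprints, and Smarcad1, a chromatin remodeller that binds Trim28, fell by 0.50 ± 0.077 and 0.29 ± 0.074. Among 14 other enzymes that write or erase methylation of histone H3 lysine 9, 4 fell (28.6%) and none rose. Suv39h2, Kdm4b, Kdm3b and Setdb2 fell by 0.84 ± 0.17, 0.35 ± 0.10, 0.26 ± 0.056 and 0.41 ± 0.13. With library totals as the only scaling 7 of the 14 fell. Setdb2 lost its call without replicate 1 of the double knockdown (adjusted p = 0.100) and without replicate 1 of both groups (0.106).

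Of 17 DNA methylation and demethylation genes 9 fell (52.9%) and 4 rose (23.5%, median -0.22), against 18.6% and 18.1% of all tested genes. Dnmt3b, a de novo methyltransferase of early embryonic cells, went from 21.6, 23.3 and 27.6 CPM to 5.12, 8.45 and 9.47 (log2 -1.66 ± 0.17, adjusted p = 1.42e-06). The other de novo enzyme gene Dnmt3a, the maintenance factor gene Uhrf1 and Tet2, which oxidises methylcytosine, fell by 0.63 ± 0.072, 0.58 ± 0.090 and 0.61 ± 0.10. The methyl-CpG readers Mbd1 and Zbtb38 rose by 0.91 ± 0.075 and 0.59 ± 0.078. Without replicate 3 of the double knockdown 2 genes of this list rose. Genes named Zfp with a number, many of which encode the KRAB zinc finger proteins that use Trim28, had fewer rises than all tested genes: 21 of 310 tested rose (6.77% against 18.1%) and 66 fell (21.3%, near the 18.6% of all tested genes), with a median of -0.13. Without replicate 1 of the double knockdown 12 rose (3.87%) and 43 fell (13.9%). Calls over all genes were also fewer in that fit, with 1992 rises and 2003 falls against 2630 and 2694 in the main fit. Zfp217 and Zfp41 fell by 0.42 ± 0.070 and 0.84 ± 0.14, and Zfp558 rose from 1.87, 3.24 and 2.1 CPM to 24, 30.1 and 25.2 (log2 3.50 ± 0.16, adjusted p = 1.85e-10).

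Imprinted genes, which are read from 1 parental copy under marks that Zfp57 and Trim28 protect, moved in both directions. Of 49 tested of 56 in the table, 12 rose (24.5%), 18 fell (36.7%) and 19 did not pass (median -0.06). All tested genes had 18.1% rises and 18.6% falls. H19 and its neighbour Igf2, a growth factor gene, fell together, H19 from 4221, 2974 and 3634 CPM to 1555, 1202 and 1257 (log2 -1.43 ± 0.13, adjusted p = 4.70e-07) and Igf2 from 1966, 1279 and 1522 to 762, 616 and 488 (log2 -1.35 ± 0.17). They are normally read from opposite parental copies. Mest fell from 253, 169 and 183 CPM to 57.6, 37.4 and 31.8 (log2 -2.26 ± 0.21), and Peg10, a retrotransposon-derived gene, from 128, 126 and 132 to 56, 56.9 and 51.1 (log2 -1.24 ± 0.084). Snrpn fell by 0.67 ± 0.082. Nnat (neuronatin) rose from 4.62, 2.75 and 5.01 CPM to 22.9, 18.9 and 21.8 (log2 2.32 ± 0.17, adjusted p = 6.42e-08), above the 5.84 ± 1.08 of uninduced cells, and Tnfrsf23, a decoy receptor gene, from 43.6, 40.3 and 39.7 to 86.4, 83.7 and 84.1. The noncoding RNA Meg3 rose by 0.52 ± 0.084. Allele-specific reads were not used here, so a change of level says nothing of the second parental copy.

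Germline and preimplantation genes, many of which depend on DNA methylation or on Setdb1 for their silence in body cells, gave few measurable members. The germline list had 38 genes with a row of counts and 10 with enough reads to be tested. Of these 10, 4 rose (40%) and none fell, against 18.1% rises and 18.6% falls of all tested genes. Tex19.1, a germ cell gene, went from 0.351, 0.081 and 0.25 CPM to 1.18, 1.3 and 2.05 (log2 2.60 ± 0.40, adjusted p = 0.000155). The piRNA helicase gene Tdrd9 and the meiotic cohesin gene Stag3 rose from 1.14 ± 0.143 to 3.68 ± 0.429 CPM and from 2.85 ± 0.371 to 5.69 ± 0.715 CPM. The Argonaute gene Piwil2 stood at 87.9 ± 17.3 CPM against 64.9 ± 6.78 (log2 0.44 ± 0.12), a call lost without replicate 2 of the double knockdown (adjusted p = 0.0626). Among 23 listed genes of early cleavage with a row of counts, 5 were tested, 1 rose and 3 fell, and 1 fell without replicate 1 of the double knockdown or replicate 3 of the control. The riser was Zfp809, at 0.58 ± 0.11, a KRAB zinc finger gene that silences murine leukaemia virus and was listed with them. Eif1ad fell by 0.29 ± 0.078. Zfp352 (log2 -1.37 ± 0.40) and Sp110 (-1.10 ± 0.41) were under 1 CPM in both groups. The fall of Zfp352 was lost without replicate 1 of the double knockdown (adjusted p = 0.0620) or replicate 3 of the control (0.0715), and that of Sp110 in 9 of 15 alternatives (0.0167 to 0.266), among them without replicate 3 of the control (0.266), replicate 2 of the control (0.0524), and replicate 1 or 3 of the double knockdown (0.137 and 0.133).

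Interferon and nucleic acid sensing genes, which respond to double-stranded RNA or DNA in the cytoplasm, mostly did not pass. Of 55 tested 11 rose, 2 fell and 42 did not pass, with a median of 0.08. The share that rose, 20%, is near the 18.1% of all tested genes, and the share that fell, 3.64%, is below their 18.6%. Most of all tested genes (9196 of 14520) did not pass either. Without replicate 1 of the double knockdown, or without replicate 3 of the control, 7 rose, and without replicate 2 of the control 4 fell. Rises over all genes numbered 1992 and 1994 in the first 2 of these fits, against 2630 in the main fit. The class I antigen genes H2-K1 and H2-D1 rose from 57.3 ± 4.97 to 95.5 ± 5.92 CPM and from 151 ± 11 to 217 ± 10.5 CPM, and Irgm1, an interferon-induced GTPase gene, and the peptide transporter gene Tap1 by 0.62 ± 0.10 and 0.51 ± 0.091. Bst2, which tethers viruses to the cell surface, fell by 0.54 ± 0.11. Trim21 fell by 0.50 ± 0.16, a call lost without replicate 1 of the double knockdown (adjusted p = 0.0942), of the control, or of both (0.158).

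**Figure D4:**
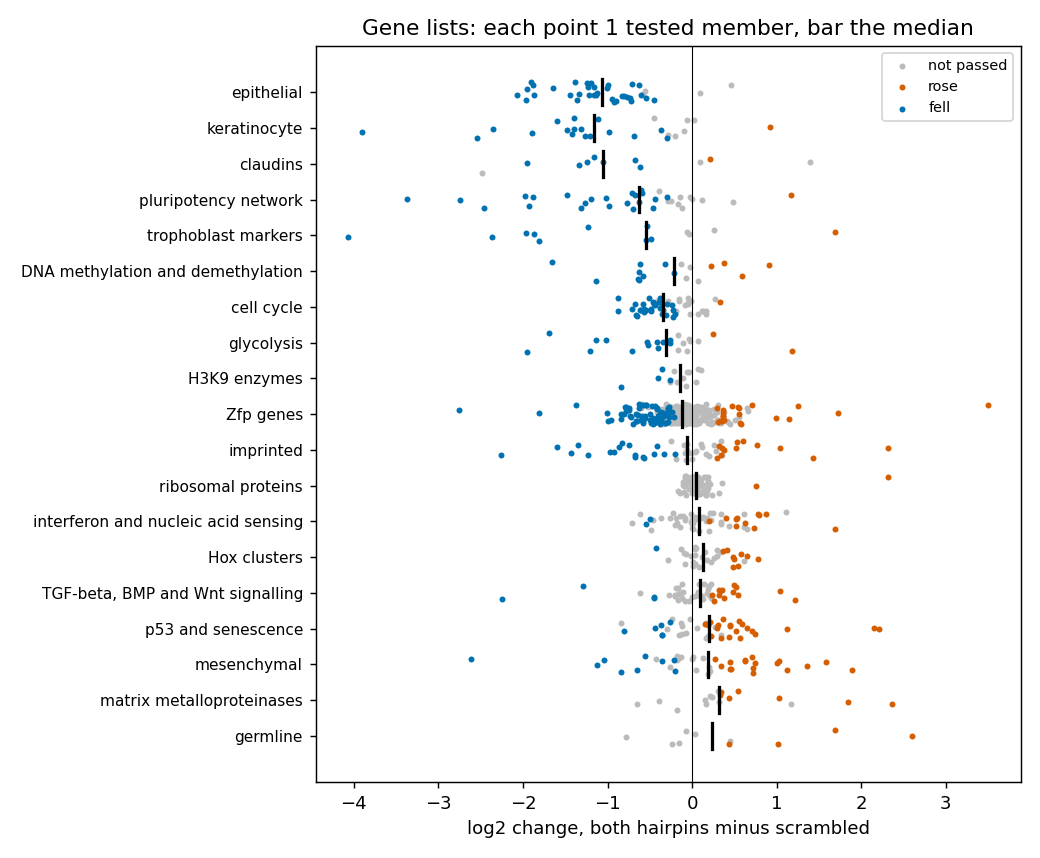
Log2 change, both hairpins minus scrambled, of every tested member of 19 gene lists, 1 point per gene, coloured by whether it rose, fell or did not pass, with the list median as a black bar. The medians of the epithelial (-1.07), keratinocyte (-1.16) and claudin (-1.05) lists lie farthest to the left, and those of the mesenchymal (0.19), germline (0.24) and metalloproteinase (0.32) lists to the right of 0.

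Markers of other cell types were examined as lists, since bulk RNA could hold such cells, and their counts stand against 18.1% rises and 18.6% falls of all tested genes, which in lists of 4 to 13 tested genes amounts to few calls. Trophoblast markers fell in 9 of 13 tested (69.2%), all 9 still above their mean in uninduced cells, with 1 rise and a median of -0.54, and their summed level was 207 to 229 CPM against 383 to 468 in the control. Elf5, a trophoblast stem cell factor, and the keratin Krt7 fell by 1.81 ± 0.21 and 1.87 ± 0.17, and Eomes, a T-box factor, rose by 1.69 ± 0.29 from 0.569 ± 0.144 CPM. The syncytiotrophoblast and spongiotrophoblast markers Gcm1, Syna and Tpbpa had at most 3 reads in each of the 6 libraries. Of macrophage markers 3 of 7 tested fell (42.9%) and none rose (summed 48.5 to 58 CPM against 62.5 to 72.5), with Itgam, Cd68 and Csf1r at -1.12 ± 0.19, -0.85 ± 0.16 and -1.03 ± 0.20, and Tyrobp and Fcer1g at 3 reads or fewer in every library. Of endothelial markers 3 of 8 fell (37.5%) and 1 rose (12.5%, summed 89.3 to 102 CPM against 113 to 129). Flt1, Eng and Tie1 were at -0.75 ± 0.12, -0.50 ± 0.11 and -0.72 ± 0.18, and Kdr at 1.15 ± 0.21, with the fall of Tie1 lost without replicate 1 of both groups (adjusted p = 0.0559). Cldn5, Emcn and Sox17 had 3 reads or fewer in each library.

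Of muscle markers 2 of 6 rose (33.3%) and 1 fell (16.7%), with a summed level of 47.5 to 58.5 CPM against 17.2 to 21.9. Skeletal actin Acta1 went from 10.8 ± 2.32 to 40.8 ± 5.04 CPM and desmin (Des) from 2.12 ± 0.493 to 7.18 ± 1.07, while the light chain gene Mylpf fell by 1.24 ± 0.21. The master factor of skeletal muscle Myod1 had no read in the 6 libraries, and Myf5, Myog, Ckm, Myl1 and Actc1 had at most 3 in each. Of neural markers 4 of 11 rose (36.4%, or 2 without replicate 3 of the control) and 3 fell (27.3%, summed 849 to 936 CPM against 739 to 904, which overlap). Ncam1, Tubb3 and Nes were at 0.67 ± 0.075, 0.80 ± 0.11 and 0.46 ± 0.13, Map2 and Sox1 at -1.31 ± 0.10 and -2.65 ± 0.35, and Pax6, Olig2, Gfap and Neurod1 had at most 3 reads in each library. The rise of Nes was lost without replicate 3 of either group (adjusted p = 0.0533 and 0.0524). Nefm (1.07 ± 0.33), whose groups overlapped, lost its call without replicate 1 of the double knockdown (0.141), without replicate 1 or 3 of the control (0.0646 and 0.0948) and without replicate 1 of both groups (0.276). Of primitive endoderm markers 3 of 11 rose (27.3%, or 1 when replicate 1 or 2 of the double knockdown or replicate 3 of the control was left out) and 4 fell (36.4%), among them Gata4 and Lama1 at -1.60 ± 0.24 and -0.67 ± 0.16, and of 4 adipocyte markers Pparg fell by 1.30 ± 0.23 and Lpl rose by 0.91 ± 0.15. The summed levels of the muscle, macrophage, endothelial and trophoblast markers did not overlap between the groups, and the part of such cells in the other results was not tested.

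Housekeeping families and transcripts that follow RNA quality moved little. Of 75 tested ribosomal protein genes 2 rose and none fell (1 fell with library totals, and without replicate 1 or 2 of the control), and the 2 risers are atypical members: Rpl39l, a testis paralog, went from 3.16, 2.92 and 2.75 CPM to 14.7, 12.2 and 17.1, and Rps4l from 44.6 ± 7.68 to 75.8 ± 7.92 CPM. Of 13 tested mitochondrial genes 2 fell, with mt-Co1 (cytochrome oxidase) at log2 -0.31 ± 0.080 and the ribosomal RNA mt-Rnr1 at -0.46 ± 0.14, and mt-Rnr1 lost its call without replicate 2 of the control (adjusted p = 0.0702). The nuclear RNA Malat1 fell by 0.35 ± 0.094, a call lost without replicate 1 of both groups (adjusted p = 0.0570). Xist, the RNA that coats the inactive X chromosome, fell from 1083, 1204 and 966 CPM to 764, 858 and 654 (log2 -0.52 ± 0.095, adjusted p = 0.000491). Of 15 tested clustered protocadherins, whose close copies make counts uncertain, 6 fell (40%) and 3 rose (20%), against 18.6% and 18.1% of all tested genes. Without replicate 1 of the control 3 fell. Pcdha10 rose by 0.76 ± 0.13, and Pcdhb19, Pcdhb21 and Pcdhb5 fell by 0.66 ± 0.18, 1.19 ± 0.29 and 0.87 ± 0.24.

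2 families held single members with large changes. Of 29 tested cytochrome P450 genes 6 rose (20.7%) and 8 fell (27.6%), near the 18.1% and 18.6% of all tested genes. When any 1 of the 3 double-knockdown libraries, replicate 3 of the control or replicate 1 of both groups was left out, 5 fell (17.2%). Falls over all genes numbered 2003 to 2567 in these fits, against 2694 in the main fit. Cyp21a1, the steroid 21-hydroxylase of the adrenal gland (ENSMUSG00000024365, chromosome 17, 34801348 to 34804561), rose from 2.16, 2.75 and 1.9 CPM to 26, 30.2 and 28.2 (log2 3.66 ± 0.14, adjusted p = 3.75e-11), while uninduced cells had 0.0216 ± 0.0374; reads shared with its pseudogene copy make this count uncertain. Cyp4f39, an epidermal fatty acid hydroxylase gene, Cyp2s1 and Cyp51, which acts in cholesterol synthesis, fell by 0.72 ± 0.092, 1.05 ± 0.15 and 0.52 ± 0.087. Of 6 tested gasdermins 3 rose (50%) and 1 fell (16.7%), against 18.1% and 18.6% of all tested genes. Besides Gsdma3, these were Gsdmc2, from 0.292, 0.243 and 0.25 CPM to 1.35, 2.11 and 1.34 (log2 2.58 ± 0.33), whose close paralogs make the count uncertain, and Gsdmd, the gasdermin cut by inflammatory caspases, by 0.58 ± 0.092. Scd2, a fatty acid desaturase, was among the largest losses in abundance, from 1580.0 ± 107 to 933 ± 62.9 CPM.

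By transcript class, large rises made up a larger share of long intergenic and antisense genes than of protein-coding genes, which was not tested. The classes were not matched for read count. Of 301 tested long intergenic RNAs 14 rose at least 4-fold (4.65%), and of 137 antisense genes 6 (4.38%), against 111 of 13686 protein-coding genes (0.811%). Processed transcripts (3 of 177, 1.69%) and pseudogenes (2 of 189, 1.06%) were nearer the coding share. Falls of at least 4-fold made up 0.664%, 0.730% and 0.716% of the long intergenic, antisense and protein-coding genes. They numbered 2, 1 and 98, too few in the first 2 classes for a comparison. On the X chromosome none of 492 tested genes rose at least 4-fold and 9 fell, and 13% rose and 22.6% fell at any size, against 18.1% and 18.6% of all tested genes. Rises of at least 4-fold made up 14 of 546 tested genes on chromosome 13 (2.56%) and 14 of 712 on chromosome 6 (1.97%), against 0.944% of all tested genes, while chromosome 2, with 14 of 1172 (1.19%), was near that share.

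How far these levels differed from those with the Trim28 hairpin alone was tested as the difference between the double and the single knockdown in the same fit. In this comparison 3151 genes (21.7%) differed, with 1452 higher (10%) and 1699 lower (11.7%) in the double knockdown. The number fell to 1847 without replicate 1 of the double knockdown and to 1820 and 2057 without replicate 2 or 3 of the Trim28 knockdown. Of the 137 genes that rose at least 4-fold against the control, 55 were higher than with the Trim28 hairpin alone, 15 were lower and 67 did not pass, which is a description, since high levels in the same double-knockdown libraries had chosen these genes. Pnliprp2 was at 6.83, 8.35 and 8.47 CPM with both hairpins and 0.127, 0.532 and 0.409 with the Trim28 hairpin alone, a log2 difference of 4.42 ± 0.32 (adjusted p = 4.87e-07). Akr1c21 was higher by 2.99 ± 0.42, Zfp558 by 2.73 ± 0.14, Tex19.1 by 2.60 ± 0.40 and Rdh16 by 1.61 ± 0.21. Gsdma3, Cdhr2, Dnah6 and Cyp21a1 had differences of -0.01 ± 0.14, -0.05 ± 0.14, -0.05 ± 0.22 and -0.06 ± 0.10 (adjusted p = 0.979, 0.836, 0.906 and 0.743), which did not pass. Gsdmc2 was lower with both hairpins, at 1.6 ± 0.442 CPM against 5.87 ± 0.362 (difference -1.86 ± 0.19, adjusted p = 1.91e-05). The 2 comparisons share the double-knockdown libraries, and the Trim28 transcript itself was higher by 0.82 ± 0.10 with both hairpins than with its hairpin alone (adjusted p = 4.19e-05).

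Of the 104 genes that fell at least 4-fold, 40 were lower than with the Trim28 hairpin alone, none was higher and 64 did not pass, again among genes chosen by the same libraries. Hand1, Aadac and Cnksr2 were at 0.504 ± 0.134, 0.264 ± 0.134 and 0.684 ± 0.185 CPM with the Trim28 hairpin alone, and their differences of 0.66 ± 0.73, 1.06 ± 0.48 and 0.81 ± 0.40 did not pass. Among the lists, 31 of 38 epithelial genes, 18 of 24 keratinocyte genes and 14 of 33 pluripotency genes were lower than with the Trim28 hairpin alone. Of all tested genes 11.7% were lower and 10% higher, and the list counts here stand against these shares. List counts of this comparison are not given for the alternatives. Krt18 stood at 40.1, 39 and 39 CPM there and 14.8, 18 and 17.2 with both hairpins (difference -1.24 ± 0.13, adjusted p = 8.53e-06), and Cldn4 and Tfcp2l1 differed by -0.94 ± 0.10 and -1.13 ± 0.16. All 4 reprogramming factors were lower too, with differences of -0.65 ± 0.11 for Pou5f1 and -0.62 ± 0.10 for Klf4. Of mesenchymal genes 23 of 39 were higher than with the Trim28 hairpin alone and none was lower, with Acta2 and Tagln up by 0.64 ± 0.10 and 0.48 ± 0.082. In the cell cycle list 4 of 50 were higher and 4 lower, and the differences of H19 and Igf2 (0.02 ± 0.13 and 0.06 ± 0.16) did not pass. Col3a1 was at 0.26 ± 0.13 and did not pass (adjusted p = 0.156), but passed with no low-count filter (adjusted p = 0.00196) and with the replicate block (0.0403). Ctgf and Nnat were higher by 0.92 ± 0.071 and 1.16 ± 0.16.

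**Figure D5:**
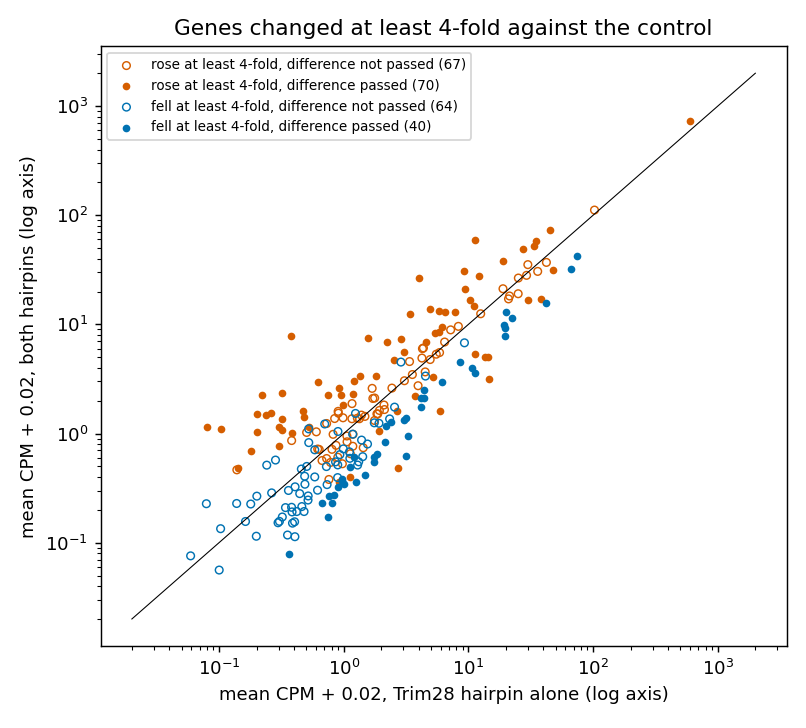
Mean CPM plus 0.02 with the Trim28 hairpin alone (x axis) and with both hairpins (y axis), both on log axes, for the 137 genes that rose and the 104 that fell at least 4-fold against the induced control, with filled symbols where the difference passed the test. Filled symbols lie above the line for 55 of the rises and below it for 15, and below it for all 40 filled falls.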

How the data were processed

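The deposited table holds whole-number read counts per gene for 12 RNA-seq libraries, made by the authors with TopHat2 2.0.12, Bowtie 1.1 and HTSeq per the submitters' processing notes. The genome build, the strand setting of the counting and any removal of feeder reads are not given in the sources used here. Gene places come from GENCODE M21 (GRCm38), in which 23882 of 24207 identifiers were found, 23873 of them at an overlapping place, and promoter sequences come from RefSeq. Columns were assigned by their names.

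Counts were tested with edgeR 4.0.16 (R 4.3.3): TMM factors, filterByExpr with a minimum count of 10 and total of 15, and a robust quasi-likelihood fit over all 12 libraries with 1 mean per group. A gene was called to rise or fall at a Benjamini-Hochberg adjusted p under 0.05 over 14520 genes, and every adjusted p in the text is from this test unless another tool is named. A gene did not overlap where all 3 libraries of one group lay above all 3 of the other. Folds against 0 reads use a floor of 3 reads over the group, and folds against 1 to 3 reads carry an exact 95% interval, both for counting error only. The fit was tested on simulated data with 14274 genes for the comparison of the double knockdown with the induced control. Each fold size was given to 50 genes. The fit recovered 62% of 1.5-fold, 96% of 2-fold and 100% of 4-fold and 8-fold changes, with 10 false calls. In the data 5324 genes were called, and these figures do not cover a shift of that extent. Recovery was not split by read count, so it is not known for genes of few reads.

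Named genes were the targets and the 4 factors; the 12 largest rises and falls among called genes that did not overlap and reached 1 CPM on average in the group where they are higher, leaving out predicted, Rik and clone genes and pseudogenes; the 6 largest gains and losses of CPM; in each list up to 4 genes of smallest p in the main direction and 2 in the other (3 and 1 in families); and the neighbours of the rises. Some genes under this rule are not reported here. The comparison, the gene lists and these rules were chosen with earlier results of these data known. Alternatives were other scalings, filters, tools (DESeq2 1.42.0, limma 3.58.1), fits on 6 libraries, a replicate block and leaving out libraries; leaving out replicate 1 of both groups was chosen after seeing the data.

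The replicate numbers in the labels were checked for pairing. Deviations from the group mean correlated across genes between same-numbered double-knockdown and control libraries (r = 0.310, 0.141 and 0.188). Unlike-numbered libraries had r from -0.208 to 0.0345. The numbers were therefore taken to pair them, from the data and not from a stated batch. The main test left this pairing out, and the replicate block used it.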

Additional observations from a re-analysis of the deposited data

How the results depend on the processing

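Over 16 alternatives the number of genes that changed against the induced control ran from 3995 to 5668 (rises 1992 to 2721, falls 2003 to 3270), and leaving out libraries gave 3995 to 5668. Rises and falls of at least 4-fold numbered 218 and 200 with no low-count filter, which tests more genes of few reads, and 140 to 156 and 103 to 148 when libraries were left out. With the replicate block 5517 genes changed, 2721 up and 2796 down. Of the genes named in the text, the block ended the call of Sp110 (adjusted p = 0.0537, edgeR). When only the 6 libraries compared were fitted, 4249 genes changed against the induced control (2038 up, 2211 down). This is fewer than the 5324 of the fit over all 12 libraries. Against the Trim28 hairpin alone, such a fit gave more genes, 4863 (2387 higher, 2476 lower) against 3151. The cause of either shift was not tested. Leaving out 1 library gave 1820 to 2833 genes against the Trim28 hairpin alone (764 to 1256 higher, 1026 to 1577 lower). By the same check, same-numbered libraries there had r = 0.191, 0.0320 and 0.0927, and unlike-numbered ones -0.148 to 0.0671. These ranges overlap, so no pairing was taken from them. The replicate block gave 3390 genes. Of 208 named genes 199 passed, 177 of them in every alternative that could be computed, 22 lost the call in at least 1, and none reversed. Of 32 list counts of 5 or more, 23 stayed within 1.5 times in every alternative. Fits that left out libraries changed fewer genes in all than the 5324 of the main fit, save that without replicate 1 of the control (5668). A smaller list count in such a fit is therefore not particular to the list. Depth limits the genes of few reads: a gene under 3 reads in a library lies below 0.156 to 0.252 CPM.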
